A study of Mus musculus with 2 samples.

Results

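The genes described here are the MHC class I heavy chains H2-K1, H2-D1, H2-Q4, H2-Q6, H2-Q7, H2-T22, H2-T23 and H2-M3 and their shared light chain B2m. They were taken by gene name from the deposited table, where all 9 are found among 11349 protein-coding genes. RNA was sequenced from mouse macrophages, phagocytic cells of the immune system, collected as primary cells from the abdominal cavity. One library came from wild-type (WT) cells and 1 from cells whose title marks loss of the macrophage surface receptor Trem2. Both had been with TGF-β1, a growth factor of wound repair, for 24 h, so no untreated cells stand beside them. The genotype field of the second sample reads knockdown, and its title was followed here. The sources used here do not give the allele, the strain and age of the mice, or whether animals were pooled, except that the WT column is headed C57. The study asks which genes differ between the genotypes, as background to work on the exosomes of these cells in kidney scarring.

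MHC class I molecules carry peptides from inside the cell to its surface, where T cells and natural killer cells read them. Each is a heavy chain paired with B2m, and the pair is filled with peptide in the endoplasmic reticulum by the Tap transporter and its partners. In the mouse the classical heavy chains H2-K1 and H2-D1 present peptides to CD8+ T cells. The Q, T and M genes, called class Ib, vary less between individuals and include specialised molecules. Interferons and NF-κB are known to raise class I transcription, and the factor Nlrc5 drives it through the promoter's X and Y boxes.

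Values are FPKM, fragments per kilobase of gene, scaled to the library's depth. The spacing of low values puts the depth near 13.5 M fragments (WT) and 12.4 M (knockout). With 1 library per group there is no replicate check and no test. The 95% intervals given are exact ones from estimated fragments and cover counting error only, since copies of a molecule made by PCR are not independent. Fold differences called by size use log2((knockout + 1)/(WT + 1)), which understates changes of low genes, and 2-fold is the threshold. Trem2 was at 135 FPKM (WT) and 13.7 FPKM (knockout). In RNA from mixed cells, more cells of a type and more RNA per cell cannot be told apart.

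The promoters of 6 members are printed to show the letters that class I genes share and those in which H2-T23 and B2m differ from the rest. Each run holds the 200 bases before the annotated start of transcription, 5′ to 3′, from RefSeq (GRCm38.p6, the mm10 assembly). The runs are H2-D1 at chr17:35262894-35263093 on the + strand, H2-Q6 at chr17:35424650-35424849 on the + strand, H2-Q7 at chr17:35438955-35439154 on the + strand, H2-T22 at chr17:36042743-36042942 on the - strand, H2-T23 at chr17:36032702-36032901 on the - strand and B2m at chr2:122147487-122147686 on the + strand. Capitals mark matches to the motifs named below.
H2-D1: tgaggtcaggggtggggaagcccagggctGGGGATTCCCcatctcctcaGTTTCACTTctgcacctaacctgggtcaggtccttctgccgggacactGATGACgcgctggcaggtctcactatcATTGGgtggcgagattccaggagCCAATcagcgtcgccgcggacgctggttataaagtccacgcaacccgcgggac
H2-Q6: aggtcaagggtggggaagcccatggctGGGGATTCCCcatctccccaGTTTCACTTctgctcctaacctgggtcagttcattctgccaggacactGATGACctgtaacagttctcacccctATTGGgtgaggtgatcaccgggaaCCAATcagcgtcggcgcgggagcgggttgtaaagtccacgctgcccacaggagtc
H2-Q7: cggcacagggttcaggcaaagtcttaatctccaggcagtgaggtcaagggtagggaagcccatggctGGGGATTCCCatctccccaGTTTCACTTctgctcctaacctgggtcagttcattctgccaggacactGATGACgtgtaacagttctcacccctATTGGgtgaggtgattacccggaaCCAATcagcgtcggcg
H2-T22: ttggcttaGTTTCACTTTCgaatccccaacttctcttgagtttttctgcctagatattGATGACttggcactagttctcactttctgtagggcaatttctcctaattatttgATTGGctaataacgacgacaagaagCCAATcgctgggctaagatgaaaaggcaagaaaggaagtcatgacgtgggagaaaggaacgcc
H2-T23: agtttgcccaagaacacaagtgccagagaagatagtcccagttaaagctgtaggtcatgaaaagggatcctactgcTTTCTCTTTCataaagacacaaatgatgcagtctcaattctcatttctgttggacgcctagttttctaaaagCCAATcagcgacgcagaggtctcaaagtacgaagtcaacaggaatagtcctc
B2m: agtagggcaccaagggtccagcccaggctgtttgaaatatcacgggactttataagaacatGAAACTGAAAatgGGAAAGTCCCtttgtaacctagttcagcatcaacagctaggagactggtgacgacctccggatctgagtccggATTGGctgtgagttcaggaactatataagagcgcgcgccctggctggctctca

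A promoter window ran from 250 bases before to 50 after the start, and 32851 such windows served as the background. Motifs were searched on both strands, and all 9 members had a window. The letters GTTTCACTT, found in the interferon element of class I promoters, were in 7 of the 9, namely H2-K1, H2-D1, H2-Q4, H2-Q6, H2-Q7, H2-T22 and H2-M3, against 0.399% of all windows. The general interferon motif, GAAA, any 2 bases and GAAA again, was in H2-T22, H2-T23 and B2m, against 3.44% of all windows, and in H2-T22 it overlaps GTTTCACTT. GGGATTCCC, the core of the NF-κB site called enhancer A, was in H2-K1, H2-D1, H2-Q6 and H2-Q7, against 0.353%. The looser NF-κB form, GGG, any 2 bases, TT, any base and CC, overlaps it and was also in H2-Q4 and B2m, against 4.79%. GATGAC, from the X box stretch, was in 6 of the 9 members and 10.05% of windows. CCAAT, on either strand, was in all 9 and in 37.4% of windows. Its other-strand form, the Y box ATTGG, was in every member but H2-T23. H2-Q6 and H2-Q7 had the same motifs in the same order. Their starts are annotated apart, so enhancer A begins at position -172 from the start in H2-Q6 and -132 in H2-Q7. A match of letters is a description of the window and not evidence of binding. GTTTCACTT and enhancer A were chosen as known class I elements, and several member promoters are alike. Their shares beside all windows are therefore no test of enrichment.

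All 9 members were higher in the knockout library than in WT. Of these, 7 were at least 2-fold higher and 0 lower, where 3.48% of the 9962 genes averaging 1 FPKM or more were 2-fold higher and 13.7% lower. Their median log2 fold change was 1.66, beside -0.31 for all genes. Relative to that median the members' own median stood at 1.97, with 7 of 9 past 2-fold higher against 7.66% of all genes (6.57% lower). The split over all genes moves with the scaling. By the median of ratios 7.46% were 2-fold higher, 8.17% lower and 0.944% 4-fold higher, and at the same total 2.59%, 18.1% and 0.452%. The other 2, H2-T23 and H2-M3, were higher by less than 2-fold on either count.

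**Figure D1:**
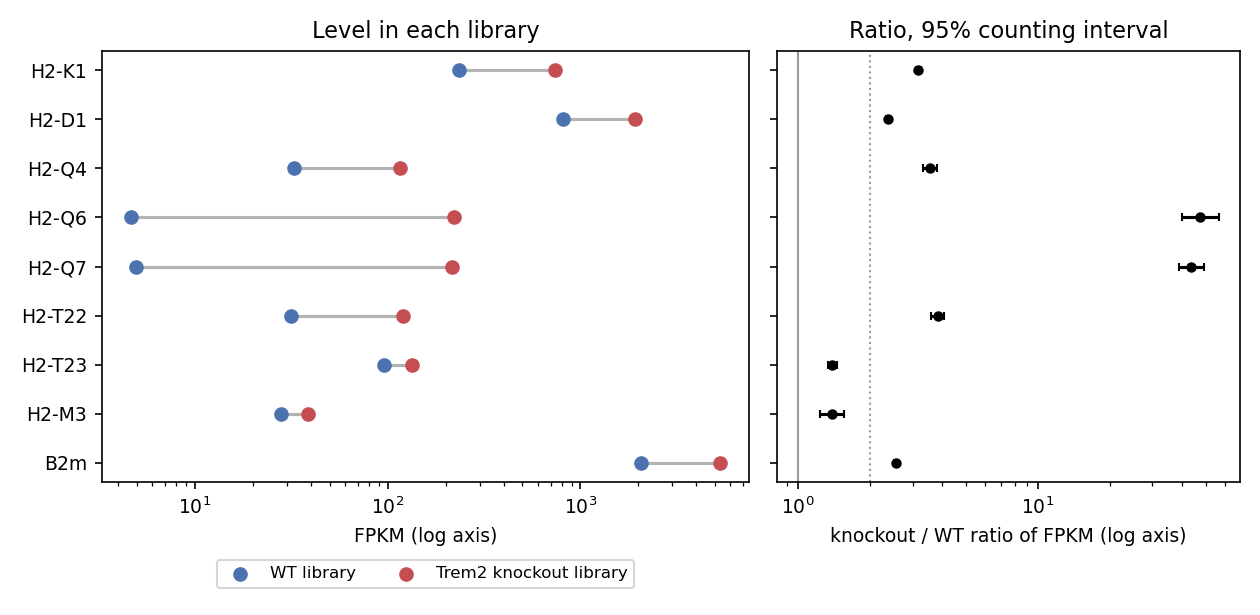
Left, FPKM of each member in the WT and the knockout library on a log axis. Right, the knockout to WT ratio with its 95% counting interval, a solid line at a ratio of 1 and a dotted line at 2. Every knockout point lies to the right of its WT point, and H2-Q6 and H2-Q7 have the widest gaps, at 47.4-fold and 43.6-fold.

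Among the classical heavy chains, H2-D1 was at 810 FPKM (WT) and 1915 FPKM (knockout), 2.36-fold higher (interval 2.33 to 2.40). The gene lies on chromosome 17 from 35262730 to 35267499 on the + strand (mm10, ENSMUSG00000073411.11). H2-K1 was at 233 FPKM (WT) and 740 FPKM (knockout), 3.17-fold higher (interval 3.09 to 3.25). It lies from 33996017 to 34000333 on the - strand of the same chromosome (ENSMUSG00000061232.15). The ratio of H2-D1 to H2-K1 in FPKM was thus 3.47 in WT and 2.59 in the knockout, and the intervals of their fold differences do not overlap. Among all 11349 listed genes ordered by FPKM, H2-D1 was number 30 in WT and 14 in the knockout, and H2-K1 number 162 and 45.

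B2m, the light chain, was at 2073 FPKM (WT) and 5303 FPKM (knockout), 2.56-fold higher (interval 2.52 to 2.60). It was the tenth and the fourth most abundant listed gene, at ranks 10 and 4, and made up 0.686% and 1.57% of summed FPKM. The gene lies on chromosome 2 from 122147686 to 122153083 (+ strand, ENSMUSG00000060802.8), away from the heavy chains, which are all on chromosome 17. The sum over the 8 heavy chains was 1242 FPKM (WT) and 3499 FPKM (knockout), 2.82-fold higher. B2m thus stood at 1.67 times the heavy chain sum in WT and 1.52 times in the knockout. With H2-Q6 and H2-Q7 left out the order turned, to 1.68 and 1.73 times.

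H2-Q6 and H2-Q7 encode class Ib molecules of the Qa-2 type, which can be held in the membrane by a lipid anchor. H2-Q6 was at 4.65 FPKM (WT) and 220.4 FPKM (knockout), 47.4-fold higher (interval 39.8 to 56.6), from an estimated 131 and 5703 fragments. H2-Q7 was at 4.96 FPKM (WT) and 216 FPKM (knockout), 43.6-fold higher (interval 38.8 to 49.2), from 285 and 11447 fragments. Both intervals overlap, in the levels and in the ratios. By log2 fold change they were number 4 and number 6 of the 9962 genes, and they are the only members at 4-fold or more in the deposited values, where 0.512% of all genes were 4-fold higher. By the median of ratios H2-Q4, at a log2 fold change of 2.11, and H2-T22, at 2.22, also passed 4-fold, so that 4 members did against 0.944% of all genes. H2-Q6 lies on chromosome 17 from 35424850 to 35430055 and H2-Q7 from 35439155 to 35443773, both on the + strand, with 9.10 kb between them.

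The coding sequences of these neighbours were 95.5% identical over 974 aligned bases in GENCODE M21, the closest of the 28 heavy chain pairs. Against H2-K1 and H2-D1 they were 88.3% to 89.9% identical. Of all runs of 150 bases in the longest protein-coding transcript of H2-Q6, 5.99% also occur in a transcript of another gene, H2-Q7. For H2-Q7 the share was 9.68%, and 8.44% occur in H2-Q6. The sources used here do not say how reads that match both were assigned. Their summed FPKM, which weights each gene by its own length, was 9.62 FPKM (WT) and 437 FPKM (knockout), 45.4-fold higher. For H2-K1, H2-M3 and B2m 0% of runs were shared, and for H2-D1, H2-T22 and H2-T23 1.79%, 0.931% and 0.831%.

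H2-Q4, a class Ib gene of the same cluster 39.6 kb before H2-Q6, was at 32.7 FPKM (WT) and 115 FPKM (knockout), 3.53-fold higher (interval 3.30 to 3.78). It lies on chromosome 17 from 35379617 to 35385290 on the + strand. Its fold difference was nearer to that of the classical genes than to that of its Q neighbours. In 8.39% of its 150-base runs it matches another annotated gene.

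The T pair stood apart from each other. H2-T22, known as a ligand of γδ T cells that needs no peptide, was at 31.3 FPKM (WT) and 119 FPKM (knockout), 3.82-fold higher (interval 3.60 to 4.05). H2-T23, the Qa-1 molecule that shows leader peptides of other class I chains to the natural killer receptor NKG2A, was at 96.1 FPKM (WT) and 134 FPKM (knockout). That is 1.39-fold higher (interval 1.33 to 1.45). The genes lie 4.27 kb apart on the - strand of chromosome 17, H2-T23 from 36029773 to 36032855 and H2-T22 from 36037128 to 36042747. In FPKM H2-T22 was at 0.326 times H2-T23 in WT and 0.895 times in the knockout. In the windows searched, H2-T23 held neither GTTTCACTT nor an NF-κB form, and H2-T22 held the first of these. Both held the general interferon motif. H2-M3 held GTTTCACTT too and was 1.38-fold higher, and B2m did not and was 2.56-fold higher. Any part of these motifs in the fold differences was not tested.

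H2-M3, which presents formylated peptides of bacteria, was at 28.0 FPKM (WT) and 38.8 FPKM (knockout), 1.38-fold higher (interval 1.23 to 1.55). It lies from 37270220 to 37274484 on the + strand of chromosome 17, 1227 kb beyond H2-T22. Its interval overlaps that of H2-T23, so the smallest differences among the members cannot be ranked. H2-T23 was number 1270 and H2-M3 number 1307 of the 9962 genes by log2 fold change, whereas the other 7 were among the top 211.

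In WT the order of levels per length was B2m, H2-D1, H2-K1, H2-T23, H2-Q4, H2-T22, H2-M3, H2-Q7 and H2-Q6. In the knockout library it was B2m, H2-D1, H2-K1, H2-Q6, H2-Q7, H2-T23, H2-T22, H2-Q4 and H2-M3. Counting intervals of the levels overlapped between H2-Q4 and H2-T22 and between H2-Q6 and H2-Q7 in each library, and between H2-T22 and H2-M3 in WT. The first 3 places were the same in both, and the Qa-2 genes stood last in WT and just below the classical genes in the knockout library. That place of H2-Q6 depends on the length used, as given with the transcript lengths.

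**Figure D2:**
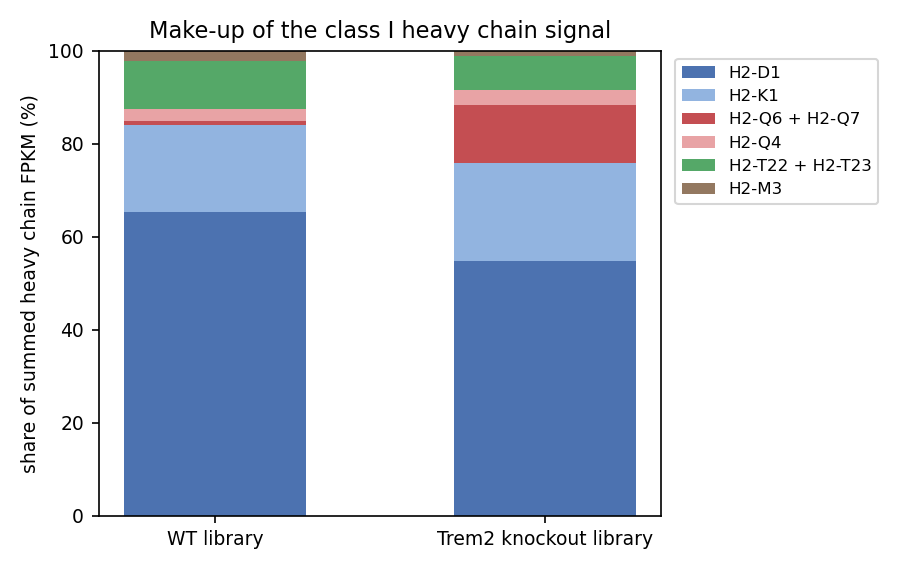
Share of the summed FPKM of the 8 heavy chains held by each gene or pair, in percent, in the WT and the knockout library. H2-Q6 and H2-Q7 take 0.774% of the WT bar and 12.5% of the knockout bar, while the share of H2-D1 goes from 65.3% to 54.7%.

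The classical chains made up 84.1% of the heavy chain sum in WT and 75.9% in the knockout, and the Q, T and M genes 15.9% and 24.1%. As sums, the classical genes were 2.54-fold higher and the 6 others 4.27-fold higher. Of the difference of 2258 FPKM between the libraries, H2-D1 held 48.9%, H2-K1 22.5% and the Qa-2 genes 18.9%. Without H2-Q6 and H2-Q7 the classical share was 84.7% in WT and 86.7% in the knockout, so its direction rests on those genes. The other 4 class Ib genes together were 2.16-fold higher, 188 FPKM (WT) and 407 FPKM (knockout).

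The gene length behind FPKM bears on comparisons between genes. FPKM times the summed length of all annotated exons gave numbers with 6 decimals for the 7 members whose annotation matched, and retained introns count in that length. For H2-K1 and H2-Q7 the length was itself found by this property. For H2-Q7 it is 4265 bases, 2.80 times its longest protein-coding transcript of 1523 bases, while for H2-Q6 both are 2085 bases. Per length of that transcript H2-Q7 would stand at 606 in the knockout, above H2-T23 at 262, H2-T22 at 232 and H2-Q6 at 220.4, and the classical share would be 80.0% in WT and 69.9% in the knockout. Ratios of the same gene between the libraries do not depend on this length.

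Along chromosome 17 most class I members had a larger log2 fold change than the genes around them. Of 87 listed genes from H2-K1 to H2-M3 with a mean of 1 FPKM or more, 70 belong to neither MHC class. Their median log2 fold change was -0.20, beside -0.31 for all genes. Of the 70, 9 were at least 2-fold higher and 7 lower. The higher ones made up 12.9%, beside 3.48% of all genes. The 9 include the heat shock genes Hspa1a, Hspa1b and Hspa1l, the complement gene Cfb and the peptide transporter gene Tap1, each named after its values were seen. Within 50 kb of a member lay 18 listed genes, 15 of them with a mean of 1 FPKM or more, of which 3 were 2-fold higher and 2 lower. The 4 with the largest absolute log2 fold change include Wdr46 (12.6 and 2.72 FPKM in WT and knockout) and B3galt4 (7.64 and 2.29 FPKM), on the H2-K1 side. H2-Q10 (0.0466 and 2.36 FPKM) and H2-Ke6 (11.6 and 28.5 FPKM), which is no class I gene, went the other way. The 15 neighbours had a median log2 fold change of 0.43, above the -0.31 of all genes. Of them 20.0% were 2-fold higher and 13.3% lower, beside 3.48% and 13.7% of all genes. With class I and II genes left out 13 remained, with a median of 0.38, 2 being 2-fold higher and 2 lower. On the rest of chromosome 17 the median of 443 genes was -0.34. Trem2 itself lies on this chromosome, from 48346401 to 48354147, beyond H2-M3. The allele is not given, and whether the heavy chain region differs in sequence between the libraries was not tested.

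**Figure D3:**
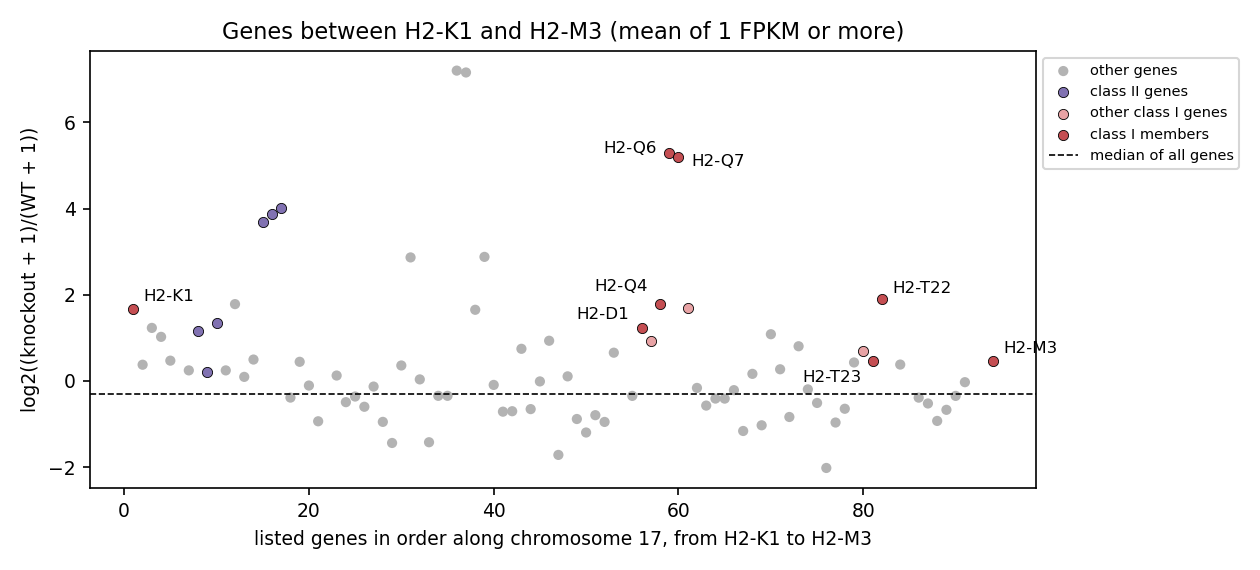
Each point is a listed gene from H2-K1 to H2-M3 averaging 1 FPKM or more, in its order along chromosome 17 (x axis, gene number), with log2((knockout + 1)/(WT + 1)) on the y axis. The 8 heavy chains lie above the dashed median of all genes at -0.31, and most genes counted in neither MHC class lie near it.

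As a list, other class I and class I-like genes had a lower median than the members and differed in both directions. The H2 genes among them, H2-Q1, H2-Q10, H2-T24 and H2-M2, were all higher in the knockout library. The lower ones were Hfe, Cd1d1, Raet1d and Raet1e. Of 30 in the list 14 were in the table and 13 had a mean of 1 FPKM or more, with 2 at least 2-fold higher, 1 lower and a median of 0.61. H2-Q1 was at 16.1 and 31.8 FPKM in WT and knockout, H2-T24 at 9.03 and 15.2 FPKM, and H2-M2 at 1.95 and 3.50 FPKM. H2-Q10, known as a secreted chain of liver, was at 0.0466 and 2.36 FPKM, from an estimated 3 and 127 fragments, a ratio of 50.5 with a counting interval of 15.4 to 226. Ulbp1, a ligand of the activating receptor NKG2D, was at 3.27 and 14.5 FPKM, while its relatives Raet1d (4.97 and 3.13 FPKM) and Raet1e (4.60 and 2.98 FPKM) were lower, and H60b was at 0.605 and 1.94 FPKM. Hfe, a regulator of iron uptake that also pairs with B2m, was at 9.77 and 3.06 FPKM, and the lipid-presenting Cd1d1 at 3.68 and 1.41 FPKM. Mr1, which presents vitamin B metabolites, was at 8.24 and 12.7 FPKM, and the antibody receptor Fcgrt at 8.72 and 13.8 FPKM. Procr was at 14.2 and 16.5 FPKM, and Mill2 at 0.319 and 0.511 FPKM.

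Genes that fill class I molecules with peptide were mostly within 2-fold. Of 12 peptide loading genes 1 was at least 2-fold higher and 0 lower, with a median of 0.37. That 1 was Tap1, a subunit of the peptide transporter, at 7.40 and 27.9 FPKM (3.77-fold, interval 3.43 to 4.16), whereas its partner Tap2 was at 19.9 and 28.5 FPKM. Of all genes 3.48% were 2-fold higher and 13.7% lower. All 12 loading genes lay above the all-gene median of -0.31. Relative to that median the list stood at 0.67, with 2 of 12 past 2-fold higher against 7.66% of all genes. Tapbp, which bridges class I to the transporter, was at 59.0 and 108 FPKM, and the chaperones Calr and Canx at 304 and 448 FPKM and at 116 and 179 FPKM. A list of inducible (immunoproteasome) and standard proteasome subunits, which cut the peptides, and proteasome activators had 0 of 9 higher and 1 lower. Its median was -0.39. Psmb8 was at 50.02 and 53.5 FPKM, a direction that turns when both libraries are set to the same total, and Psmb9 at 4.56 and 5.59 FPKM. Psmb10, the third inducible subunit, was at 23.3 and 10.6 FPKM, Psmb5 at 141 and 80.1 FPKM, Psme3 at 32.1 and 18.0 FPKM and Psme1 at 49.8 and 29.7 FPKM.

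Factors that act on class I promoters were not higher as a list. Of 22 measured, 0 were at least 2-fold higher and 3 lower, with a median of -0.30, the value of all genes being -0.31. Of all genes 3.48% were 2-fold higher and 13.7% lower, so these counts do not set the regulators apart. Nlrc5 was at 2.90 FPKM (WT) and 1.97 FPKM (knockout), 1.47-fold lower. Irf1, an activator bound at interferon elements, was at 12.8 and 19.6 FPKM. Nfyc, a subunit of the CCAAT-binding factor, was at 9.63 and 1.34 FPKM, Creb1 at 4.70 and 0.589 FPKM, Irf9 at 7.35 and 2.43 FPKM, Stat2 at 4.09 and 1.58 FPKM and Rfx5 at 1.015 and 1.39 FPKM. Of 26 genes of the type I interferon response 11 were at least 2-fold lower and 0 higher, with a median of -0.83. Oas1a (50.2 and 10.3 FPKM), Ifit1 (5.07 and 0.414 FPKM), Ifi204 (57.5 and 13.0 FPKM) and Oasl2 (9.53 and 1.80 FPKM) stood lowest. Of 20 interferon-gamma response genes 2 were higher and 4 lower, with a median of -0.26. The higher ones were Tap1 and Cd274, the checkpoint ligand PD-L1, at 70.7 and 243 FPKM, and among the lower ones were Irgm2 (7.14 and 1.53 FPKM) and Iigp1 (2.05 and 0.179 FPKM). These levels are of RNA, and the activity of the factors was not measured.

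Of the class II genes and their chaperone Cd74, which lies on chromosome 18, 6 of 7 were 2-fold higher, with a median of 3.57 beside 1.66 for the class I members. Between H2-K1 and H2-M3 it was 5 of 6 class II genes, with a median of 2.52. H2-Eb1, H2-Aa, H2-Ab1 and Cd74 had log2 fold changes of 4.01, 3.87, 3.69 and 3.57, all below those of H2-Q6 (5.29) and H2-Q7 (5.19) and above those of the other class I members. By likeness of log2 fold change to the members' median, over these 2 libraries alone, the nearest of 3790 genes averaging 10 FPKM or more were Gyg, Il1a, Stbd1, Rdm1 and Ypel2. Each lay within 0.03 of 1.66.

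**Figure D4:**
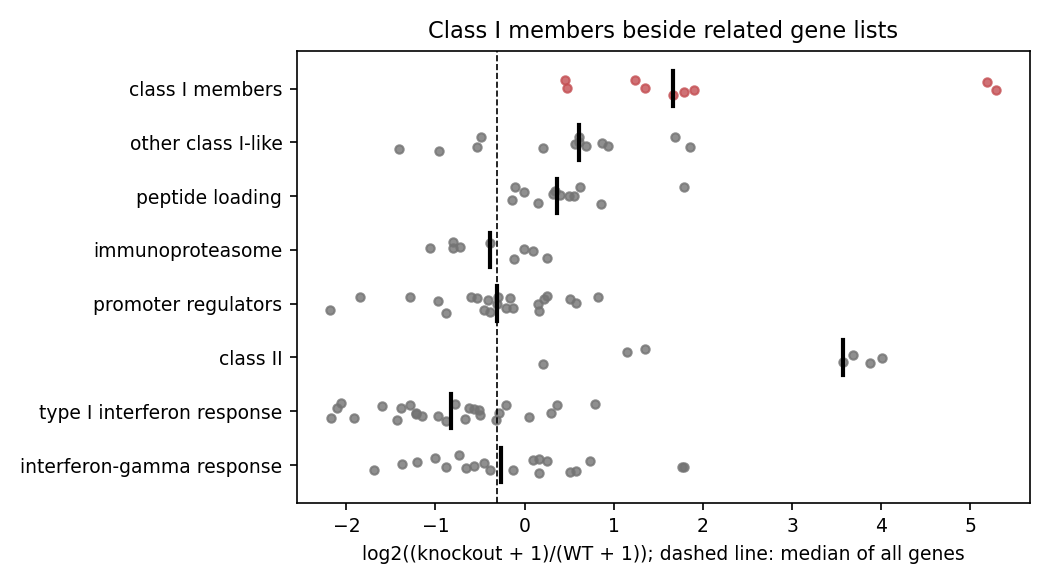
Each point is a gene averaging 1 FPKM or more, by list, with log2((knockout + 1)/(WT + 1)) on the x axis, a black bar at the median of the list and a dashed line at the median of all genes. The class I members have a median of 1.66 and the promoter regulators one of -0.30. The row labelled immunoproteasome also holds standard proteasome subunits and activators.

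Markers of macrophages were abundant in both libraries. Lyz2 was at 7962 and 10171 FPKM in WT and knockout and Cd68 at 1169 and 1512 FPKM, both named after their values were seen, and the 11 of 12 markers listed summed to 10591 and 13195 FPKM. Of these 4 were at least 2-fold lower and 0 higher, namely Gata6, a factor of resident abdominal macrophages, at 14.0 and 2.67 FPKM, Fcgr1 at 55.9 and 14.4 FPKM, Itgam at 92.7 and 41.2 FPKM, and Icam2 at 2.08 and 0.398 FPKM. Of all genes 13.7% were 2-fold lower and 3.48% higher. Dendritic cell markers, 3 of 10 listed, summed to 22.2 and 39.7 FPKM, with Itgax at 10.02 and 27.1 FPKM, Fscn1 at 10.5 and 11.8 FPKM and Batf3 at 1.72 and 0.666 FPKM. B cell markers, 3 of 8 listed, summed to 9.59 and 10.6 FPKM, and T and NK cell markers, 4 of 12 listed, to 160 and 91.0 FPKM. Il7r, at 158 and 84.7 FPKM, made up most of the latter, while Thy1 was at 0.336 and 3.805 FPKM (interval of the ratio 6.31 to 20.5), Lck at 0.846 and 1.76 FPKM. Cd28 was lower, at 1.48 and 0.684 FPKM. Fibroblast markers, 7 of 8 listed, summed to 237 and 404 FPKM, with the collagens Col1a1 (48.1 and 171 FPKM) and Col1a2 (50.6 and 108 FPKM) higher and Pdgfra (log2 fold change -2.11) and Dcn (71.4 and 48.9 FPKM) lower. Mesothelial (7 of 7), endothelial (2 of 6), mast cell (3 of 5) and neutrophil (5 of 7) markers summed lower in the knockout library, from 17.1 to 4.79, 5.92 to 1.41, 10.9 to 2.67 and 54.5 to 27.0 FPKM. None of the listed markers was at 0. The others are not in the deposited table, whose genes all reach 0.501 FPKM or more in at least 1 library. Their own levels are not known. The sums for dendritic cells and fibroblasts, and Thy1 and Lck among T and NK cell markers, were higher in the knockout library like the class I genes. The B cell sum differed less. Most of it was Cd22, whose log2 fold change was 0.10 as deposited and -0.045 when both libraries are set to the same total. Within the dendritic cell, fibroblast, B cell and T and NK cell lists other members were lower, and the part of these cells in the class I values was not tested.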

How the data were processed

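Primary macrophages of the abdominal cavity, 1 WT and 1 Trem2 knockout library after TGF-β1, were sequenced on a NovaSeq after second strands were made with dUTP, as the labels' protocols state. The deposited table holds 1 FPKM value a gene and library, per the file headers. The submitters' processing notes name mm10 as the build, and the aligner, quantifier and annotation are not given in any source used here. Genes reach 0.501 FPKM or more in at least 1 library. Groups follow the sample titles and each column matched 1 sample by name.

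Exon lengths came from GENCODE M21, where 9914 IDs matched with version and position. For H2-K1 and H2-Q7 the length was the smallest at which FPKM times length had 6 decimals in both libraries, 2608 and 4265 bases. Depth came from the step of FPKM times length among low single-transcript genes (32 WT and 49 knockout values). Of these, 71.9% and 67.3% lay within 0.1 steps of a whole multiple, and 600 steps were taken as 1 fragment of 300 bases. That gives 13.5 M and 12.4 M fragments, with a median of 375 and 251 per listed gene. Intervals are exact Clopper-Pearson ones for ratios and exact Poisson ones for levels, at 95%.

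A pseudocount of 1 FPKM and a mean of 1 FPKM or more were used, and genes were counted by size at 2-fold, since 1 library per group allows no test. Lists, 18 in all, are described by counts and medians. Where 2 gene IDs share a symbol, that of the higher mean was kept. The members and lists were chosen with earlier results of these data known. Named genes are all members, all listed class I-like genes, fixed regulators and loading genes, up to 4 per other list by absolute log2 fold change, genes within 50 kb, and the 5 nearest in log2 fold change. Not all genes that the rule takes are named, and 1 of them is not reported here. Alternatives were other pseudocounts, filters, scalings and thresholds, means for medians, and other sums. Lengths of the longest protein-coding transcript were tried after seeing the data. The size rule and intervals were tried on fragments simulated at these depths with counting error only. That check cannot cover PCR copies, shared reads, error of the depth estimate or variation between animals. The work used scipy 1.17.1, pandas 2.3.3, numpy 2.4.6, Biopython 1.88 and matplotlib 3.10.9 under Python 3.11.15.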

Additional observations from a re-analysis of the deposited data

How the results depend on the processing

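All 9 members were higher in the knockout library under all 7 alternatives of pseudocount, filter and scaling, and the 7 past 2-fold stayed past it under each. The filters leave a member's own value as it was, and a pseudocount cannot turn its direction. Only the scalings, namely the same total, the median of ratios and the trimmed mean, could have changed the direction. H2-T23 ranged from 0.31 to 0.79 and H2-M3 from 0.29 to 0.77 on the log2 scale. At 4-fold 2 members were called, H2-Q6 and H2-Q7, and 4 under the median of ratios or the trimmed mean, with H2-Q4 and H2-T22 added. The members' median went from 1.66 to 1.64 with a pseudocount of 5 FPKM, 1.497 at the same total, 1.98 under the median of ratios, 1.98 under the trimmed mean, 1.51 with H2-Q6 and H2-Q7 summed as 1 gene and 2.15 as a mean.

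Counts over all genes moved more. Genes 2-fold higher numbered 347, and 174 with a pseudocount of 5 FPKM, 743 under the median of ratios and 750 under the trimmed mean. Genes 2-fold lower numbered 1364, and 2075 and 394 with pseudocounts of 0.1 and 5 FPKM, 746 among genes averaging at least 5 FPKM, and 814 under either of those scalings. At 1.5-fold 995 were higher and 3254 lower, and at 4-fold 51 and 113.

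The heavy chain sum was 2.82-fold higher, and 2.49-fold without H2-Q6 and H2-Q7, 2.80-fold with all 12 listed class I genes, 2.96-fold per longest coding transcript, and 2.52-fold, 3.52-fold and 3.53-fold at the same total, median of ratios and trimmed mean. The classical share in WT and knockout was 84.7% and 86.7%, 82.3% and 74.8%, and 80.0% and 69.9% under the first 3 of these. The ratio of B2m to the sum was 1.68 and 1.73, 1.63 and 1.49, and 1.21 and 1.05.

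No paired analysis was possible because the study holds a single library per genotype. Nothing here measures variation between animals or cultures.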

Other observations

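A list of class I receptors and related receptors of macrophages and other cells had 6 of 13 in the table. Not all of these are known to bind class I. Of the 6, 0 were at least 2-fold higher and 1 lower, with a median log2 fold change of -0.18, beside -0.31 for all genes. The inhibitory receptors Pirb and Lilrb4a were abundant, at 98.2 and 85.2 FPKM and at 138 and 124 FPKM in WT and knockout, and the direction of each turns under the median of ratios. Lilr4b was at 118 and 74.1 FPKM, Pilra at 8.90 and 2.83 FPKM, and Klra2 at 8.68 and 7.75 FPKM. In the deposited values only Klra17 was higher, at 1.13 and 2.54 FPKM.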
